A study of Mus musculus with 14 samples.

Results

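Complexes II to V of the respiratory chain, with cytochrome c, were followed through 68 genes of the 54532 in the count tables. They were taken by gene symbol, as every *Sdha* to *Sdhd*, *Sdhaf*, *Uqcr*, *Uqcc*, *Cyc1*, *Cycs*, *Cox4* to *Cox8*, *Cox10* to *Cox20* and *Atp5* gene, after 9 rows named as pseudogenes had been left out. The rule itself used no expression value, but the members were chosen with earlier results of these data known. The genes fall into 8 of complex II, 12 of complex III, 29 of complex IV, 18 of complex V and *Cycs*, and by role into 48 subunits, 19 assembly or stability factors and the carrier cytochrome c. Control iMEFs, fibroblasts of mouse embryos that SV40 large T had immortalized, were of the genotype *Trf2* F/F;Rosa-CreER and received vehicle. Senescent iMEFs were cells of that same genotype given 1 µM 4-hydroxytamoxifen (4HT), which activates CreER and deletes *Trf2* (*Terf2*), and were collected on day 7. Cells that keep *Trf2* under 4HT were not among the libraries, so effects of 4HT or of active Cre cannot be told apart from its loss. Control livers came from Rosa-mTmG mice and senescent livers from *Trf2* F/F;Rosa-mTmG mice, on a C57BL/6J background. Both received AAV8-Tbg-Cre by tail vein, in which a hepatocyte promoter drives Cre, and were collected 6 to 7 weeks later. The control livers carried no floxed *Trf2* alleles, and the sources used here do not give the ages of the mice. There were 3 libraries in each iMEF group and 4 in each liver group.

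Complex II (succinate dehydrogenase) passes electrons from succinate to ubiquinone, complex III passes them to cytochrome c and complex IV passes them to oxygen, with complexes III and IV pumping protons. Complex V is the ATP synthase, in which proton flow through a membrane ring turns a rotor inside a catalytic head. Every protein of complex II is encoded in the nucleus, while the other complexes join nuclear subunits to a few encoded by the mitochondrial genome.

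Libraries held 15364450 to 20177401 reads in genes, and levels are given as CPM, read counts scaled to a common library size with TMM factors. *Terf2* was at 37.7, 39.2 and 38.0 CPM in control iMEFs and at 0.215, 0.305 and 0.229 CPM in senescent iMEFs, and at 11.3 to 13.8 CPM in control livers and 2.84 to 4.91 CPM in senescent livers. Of the 6 hepatocyte markers, 5 had no read in any iMEF library, and their sum was 78551 to 106076 CPM in livers. Fibroblast markers summed to 16259 to 17318 CPM in control iMEFs and to 6061 to 7107 CPM in senescent iMEFs, where 5 of 6 had fallen. Mitochondrially encoded genes took 0.599% to 0.853% of the reads in 5 iMEF libraries, 2.32% in senescent replicate 3 and 3.96% to 5.15% in livers.

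Reads were found for 65 of the 68 genes. In iMEFs 58 had enough reads to be tested and in livers 59, the additional gene being *Cox7a1*. The genes at 0 reads in all 14 libraries were *Cox7b2*, *Cox8c* and a second identifier of *Atp5o* (ENSMUSG00000116933), and *Cox8b* and *Cox20b* had 1 read each. The high end was held by *Atp5b*, the catalytic beta subunit of ATP synthase, at 702 ± 18.7 CPM per kb of transcript in control iMEFs (SD, n = 3) and 690 ± 8.14 in control livers (SD, n = 4). *Cox6a1* was next in both tissues, at 434 ± 18.0 and 542 ± 17.1 CPM per kb, and *Cox4i1* came after it, at 348 ± 15.1 and 528 ± 19.7. In iMEFs the values of these 3 genes lay well apart, whereas in livers *Cox6a1* and *Cox4i1* differed by less than their SDs. Assembly factors stood lower, and the lowest among the tested genes in control iMEFs was *Cox17*, a copper chaperone of complex IV, at 0.406 ± 0.0991 CPM per kb (SD, n = 3).

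**Figure D1:**
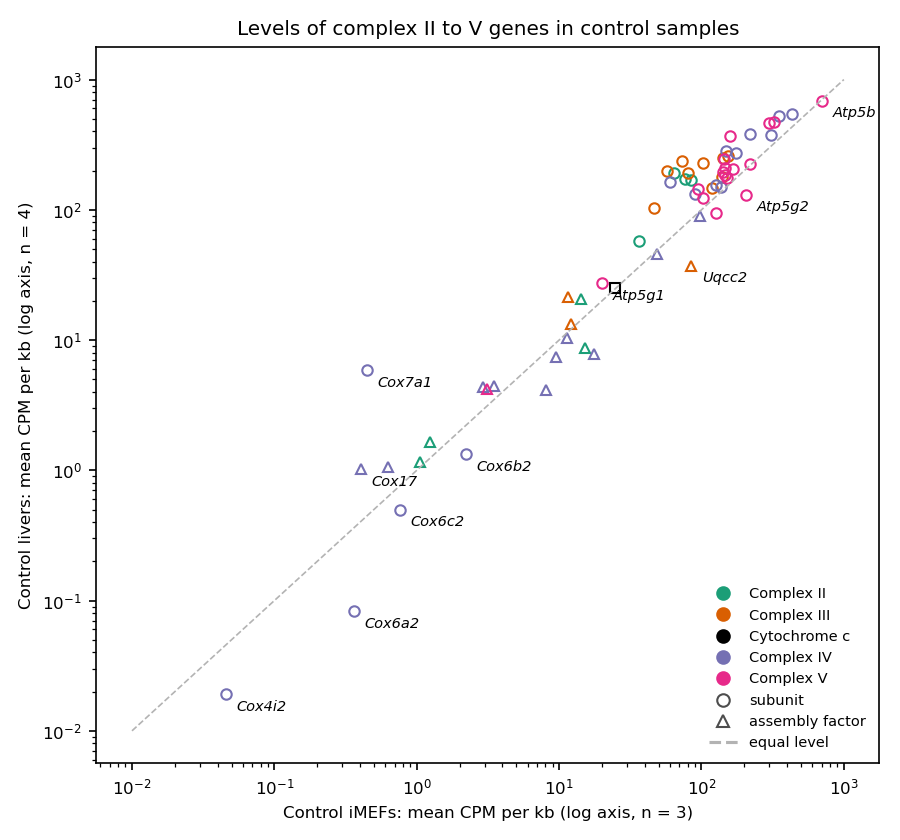
Mean level of each gene in control iMEFs (horizontal, CPM per kb, n = 3) against control livers (vertical, CPM per kb, n = 4), both on log axes, for the 63 genes above 0 in both groups, with colours for complexes and triangles for assembly factors. Subunit genes crowd at the upper right and *Cox7a1* stands far above the line of equal level.

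In senescent iMEFs, 15 of the 58 tested genes fell and 5 rose past an adjusted p of 0.05, and 38 did not pass. The largest falls were in *Atp5k* and *Atp5e*, which encode small subunits of ATP synthase, and the largest rises in *Cox17* and *Cox6b2*. Among all 13561 genes tested in iMEFs 21.2% fell and 18.6% rose, against 25.9% and 8.62% of the respiratory genes. Their median log2 fold change was -0.07, with the middle 50% of genes between -0.31 and 0.04, beside 0.00 for all genes tested. Without senescent replicate 2 that median was -0.15 and without senescent replicate 3 it was -0.03. The subunits gave 12 falls and 2 rises among 40 tested, and the assembly factors 3 falls and 2 rises among 17. The p-values measure the spread between these libraries. In bulk libraries fewer cells of a type and less RNA per cell cannot be told apart. CPM gives a share of the RNA, so a fall is a smaller share and need not be less RNA per cell. RNA per cell was not measured here.

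**Figure D2:**
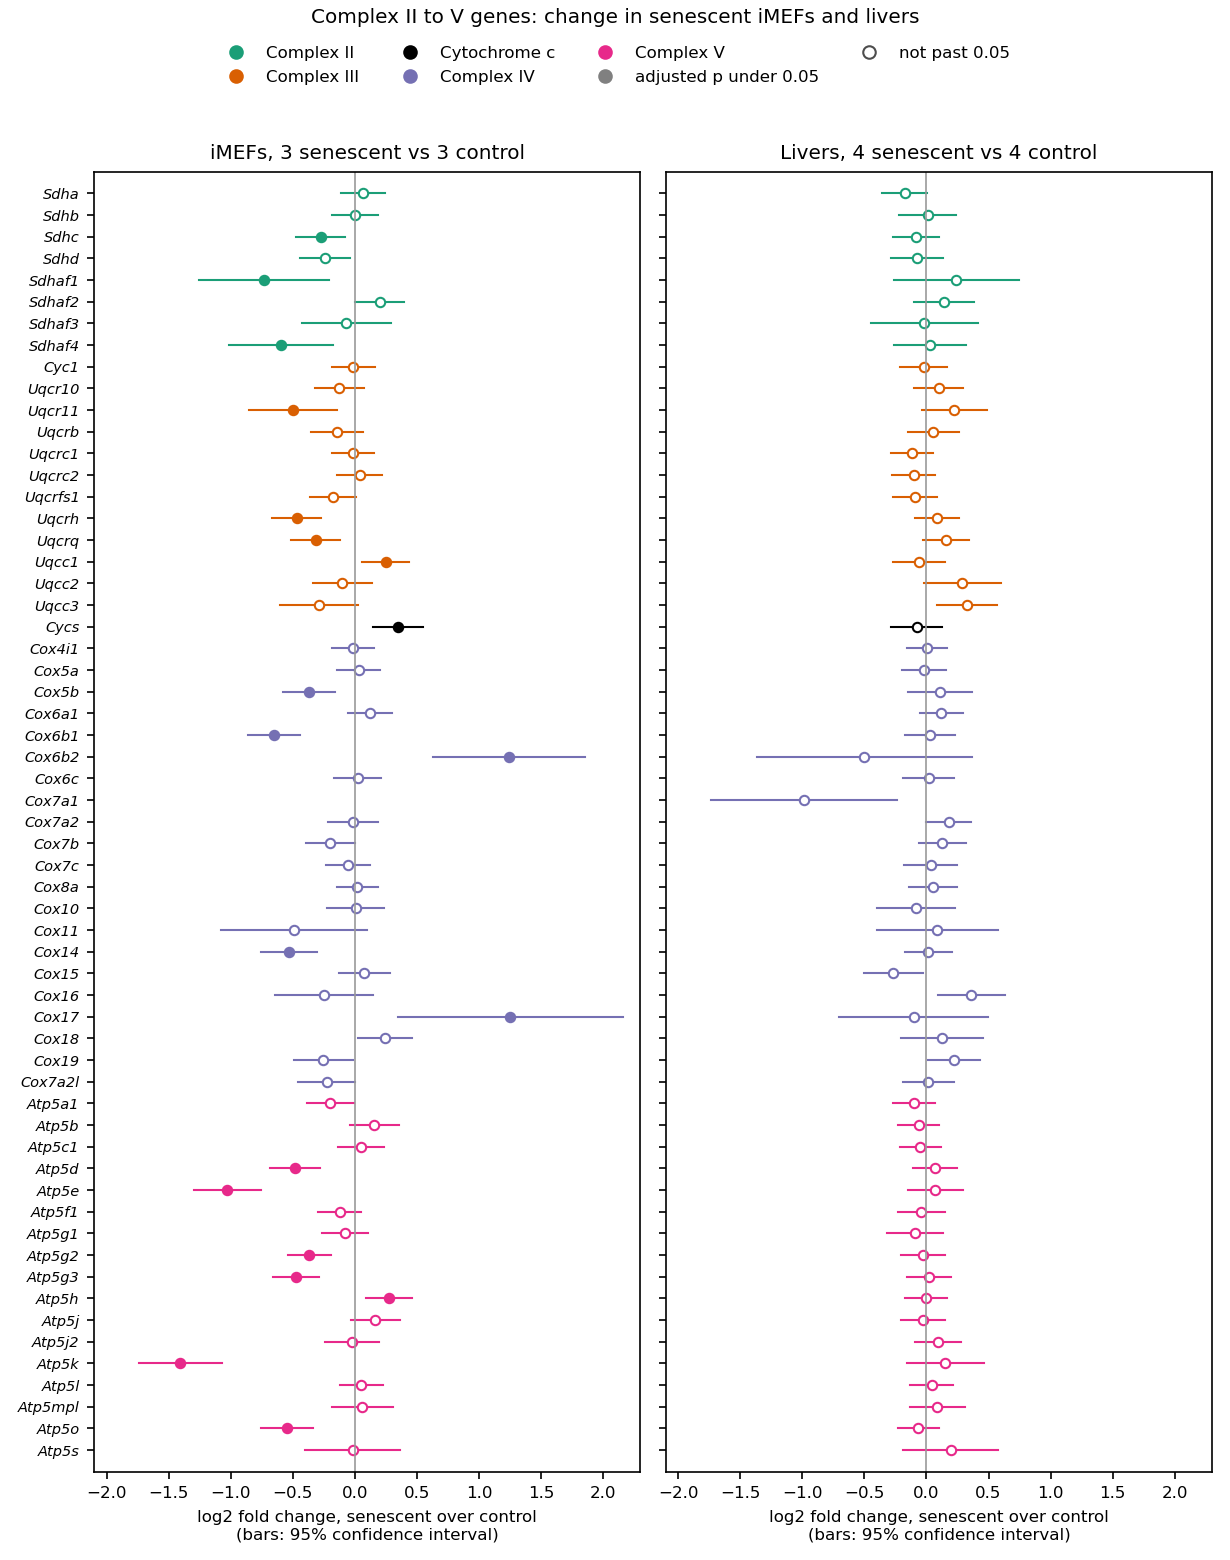
Log2 fold change of senescent over control for each tested gene in iMEFs (left, 3 against 3 libraries) and livers (right, 4 against 4), with bars for the 95% confidence interval, colours for complexes and filled points for an adjusted p under 0.05. Of the iMEF points 20 are filled, 15 of them left of 0, and none of the liver points is filled.

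Promoter sequence was available from RefSeq (GRCm38.p6) for 49 of the 68 genes, each from 250 bases before to 50 bases after the annotated start. Motifs of regulators known for respiratory genes were searched on both strands. GCGCANGCG, the core of the NRF1 motif, was in 30.6% of these promoters and in 6.47% of the 27025 promoters in the table, and CCGGAAG, an ETS motif bound by GABPA, was in 38.8% and 9.12%. AAGATGGCG, a YY1 motif, was in 4.08% and 1.49%, and GGGCGG, of SP and KLF factors, in 51.0% and 35.9%. Of the genes that fell in iMEFs, 13 had a promoter, with the NRF1 core in 6 and the ETS motif in 7. Of the 28 tested genes that did not pass, 7 held the NRF1 core and 10 the ETS motif, and of the 4 that rose 2 and 1. The motifs can overlap one another, the NRF1 core can match both strands at 1 place, and a match is a run of letters and not a measured site.

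Stretches of 100 bases that end at the more upstream of the starts annotated by RefSeq and GENCODE are given for 5 of the genes that fell and 3 that rose, chosen after their values were seen and with motif-bearing stretches preferred, to show what these promoters look like. They lie at chr5:108434449-108434548 for *Atp5k*, chr2:174464106-174464205 for *Atp5e*, chr4:116075072-116075171 for *Uqcrh*, chr10:80406831-80406930 for *Uqcr11*, chr6:50566570-50566669 for *Cycs*, chr11:115419963-115420062 for *Atp5h*, chr7:30626152-30626251 for *Cox6b1* and chr7:4753095-4753194 for *Cox6b2*, in build GRCm38.p6 and on the minus strand in each case. Capitals mark the motif letters.
Atp5k: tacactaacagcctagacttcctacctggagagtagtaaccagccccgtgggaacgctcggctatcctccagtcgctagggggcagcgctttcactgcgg
Atp5e: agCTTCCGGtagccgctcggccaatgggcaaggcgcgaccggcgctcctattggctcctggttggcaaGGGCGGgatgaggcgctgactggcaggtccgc
Uqcrh: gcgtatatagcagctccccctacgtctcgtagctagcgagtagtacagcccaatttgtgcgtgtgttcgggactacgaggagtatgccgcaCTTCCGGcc
Uqcr11: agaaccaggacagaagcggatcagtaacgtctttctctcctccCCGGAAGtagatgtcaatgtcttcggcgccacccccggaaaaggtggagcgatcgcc
Cycs: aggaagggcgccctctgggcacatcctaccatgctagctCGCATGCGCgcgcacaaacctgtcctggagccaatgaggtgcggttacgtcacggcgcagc
Atp5h: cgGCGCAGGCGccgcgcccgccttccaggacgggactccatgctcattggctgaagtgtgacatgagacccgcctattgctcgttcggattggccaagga
Cox6b1: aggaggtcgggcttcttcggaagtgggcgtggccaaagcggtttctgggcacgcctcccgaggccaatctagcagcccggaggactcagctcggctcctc
Cox6b2: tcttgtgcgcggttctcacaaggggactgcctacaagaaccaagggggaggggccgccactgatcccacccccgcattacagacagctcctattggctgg
*Atp5e*, *Uqcrh* and *Uqcr11* show the ETS letters or their reverse complement, and *Cycs* and *Atp5h* the NRF1 core. The other 3 stretches hold none of the motifs, and neither do those of *Cox14*, *Atp5g3* and *Atp5o*, which fell. Matches also lay in the promoters outside these stretches, among them the NRF1 core and the ETS motif in *Atp5k*, the NRF1 core in *Uqcr11* and the ETS motif in *Atp5h* and *Cox6b1*. The stretches shown are examples, and no comparison of motifs between genes that fell and genes that rose was tested.

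Of the 8 genes of complex II, all tested in iMEFs, 3 fell (37.5%) and none rose, beside 21.2% and 18.6% of all genes tested there. *Sdha*, the flavoprotein that oxidizes succinate, was at 191, 194 and 174 CPM in control iMEFs and at 180, 199 and 205 CPM in senescent iMEFs. *Sdhb*, the iron-sulfur subunit, was at 83.2, 88.6 and 92.7 CPM and at 87.2, 95.6 and 82.4 CPM. For both catalytic subunits the groups overlapped, and their log2 fold changes of 0.06 (95% confidence interval -0.12 to 0.24) and 0.00 (-0.18 to 0.19) did not pass. *Sdhc*, a membrane anchor, was at 111, 122 and 115 CPM in control iMEFs and at 94.3, 107 and 85.5 CPM in senescent iMEFs. It fell by 0.28 on the log2 scale (SE 0.09, adjusted p = 0.0293), and the groups did not overlap. The call was lost when any library but senescent replicate 2 was left out, with adjusted p up to 0.129 and log2 fold changes of -0.19 to -0.31. The other anchor, *Sdhd*, had a log2 fold change of -0.24 with an adjusted p of 0.0526.

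Among the assembly factors of complex II, *Sdhaf1*, which helps the iron-sulfur clusters into *Sdhb*, was at 2.49, 2.93 and 2.41 CPM in control iMEFs and at 1.61, 1.52 and 1.43 CPM in senescent iMEFs. *Sdhaf4*, a chaperone of the flavinated *Sdha*, was at 12.1, 8.78 and 8.45 CPM and at 7.03, 7.43 and 4.82 CPM. Neither pair of groups overlapped. *Sdhaf1* fell by 0.74 (SE 0.24, adjusted p = 0.0226) and *Sdhaf4* fell by 0.59 (SE 0.19, adjusted p = 0.0254) on the log2 scale. An antisense gene, *E130208F15Rik*, covers 69.6% of the exon bases of *Sdhaf1*, and the strand setting of the counting is unknown here. *Sdhaf1* lost its call without control replicate 1, control replicate 2, senescent replicate 1 or senescent replicate 2, with adjusted p of 0.0505 to 0.103, and with DESeq2 (adjusted p = 0.0894). *Sdhaf4* lost it without control replicate 1 (adjusted p = 0.129) or senescent replicate 3 (adjusted p = 0.0572). *Sdhaf2* and *Sdhaf3* did not pass.

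Of the 12 genes of complex III, 3 fell (25.0%) and 1 rose (8.33%) in iMEFs, beside 21.2% and 18.6% of all genes tested. The falls were in 3 of the 9 subunits, *Uqcrh*, *Uqcrq* and *Uqcr11*, which are small and carry no redox centre. The small subunits *Uqcr10* (-0.13) and *Uqcrb* (-0.14) did not pass, nor did *Uqcrc1*, *Uqcrc2*, *Uqcrfs1* and *Cyc1*, and the difference between small and large subunits was not tested. *Uqcrh*, the hinge protein, was at 89.2, 85.2 and 79.1 CPM in control iMEFs and at 64.3, 63.8 and 54.8 CPM in senescent iMEFs. *Uqcrq* was at 93.4, 87.1 and 81.8 CPM and at 75.0, 71.7 and 63.8 CPM. *Uqcr11* was at 40.1, 33.8 and 23.3 CPM and at 21.6, 25.2 and 21.9 CPM. Every senescent library lay below every control library for *Uqcrh* and *Uqcrq*, whereas for *Uqcr11* control replicate 3 lay among the senescent libraries. On the log2 scale *Uqcrh* fell by 0.47 (SE 0.09, adjusted p = 0.00153), *Uqcrq* fell by 0.32 (SE 0.09, adjusted p = 0.0147) and *Uqcr11* fell by 0.50 (SE 0.16, adjusted p = 0.0266). *Uqcrq* lost its call without control replicate 1 (adjusted p = 0.0745) or control replicate 2 (adjusted p = 0.0503), and *Uqcr11* with a GC offset (adjusted p = 0.0777) and without control replicate 1 (log2 fold change -0.33, adjusted p = 0.136), control replicate 2 (adjusted p = 0.0825) or senescent replicate 1 (adjusted p = 0.0694). *Uqcr11* has 2 pseudogene copies that cover 38.4% of its transcript.

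The core and redox subunits of complex III overlapped between the groups. *Uqcrc1* was at 225, 239 and 232 CPM and at 218, 245 and 227 CPM, and *Cyc1*, cytochrome c1, at 178, 186 and 178 CPM and at 184, 191 and 163 CPM. The log2 fold changes were -0.01 (95% confidence interval -0.18 to 0.16) for *Uqcrc1*, 0.04 (-0.15 to 0.22) for *Uqcrc2*, -0.01 (-0.19 to 0.16) for *Cyc1* and -0.18 (-0.36 to 0.01) for *Uqcrfs1*, the Rieske protein. Of the assembly factors, *Uqcc1* was at 31.7, 33.1 and 31.1 CPM in control iMEFs and at 36.8, 40.1 and 37.0 CPM in senescent iMEFs, without overlap. It rose by 0.25 on the log2 scale (SE 0.09, adjusted p = 0.0390), a call that was lost when any library but senescent replicate 3 was left out, with adjusted p up to 0.140. It was also lost with the replicate number as a block (adjusted p = 0.0555), with DESeq2 (0.0733), with no filter on low counts (0.127) and in 1 fit over all libraries (0.0923).

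*Cycs*, which encodes the electron carrier cytochrome c and lies on chromosome 6, was at 84.5, 74.9 and 72.9 CPM in control iMEFs and at 95.4, 109 and 91.7 CPM in senescent iMEFs. The groups did not overlap, and *Cycs* rose by 0.35 on the log2 scale (SE 0.09, adjusted p = 0.0103). Without control replicate 2 the log2 fold change was 0.32 and the adjusted p 0.0599, and with a GC offset they were 0.21 and 0.101. Copies that share at least 95% identity cover 35.0% of its transcript.

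Complex IV, cytochrome c oxidase, gave 3 falls and 2 rises among 20 tested genes, and 9 of its 29 genes had too few reads in iMEFs. These shares of 15.0% and 10.0% lay below the 21.2% and 18.6% of all genes tested. *Cox6b1*, a subunit on the outer side of the membrane, was at 94.9, 97.3 and 81.9 CPM in control iMEFs and at 63.9, 55.3 and 55.1 CPM in senescent iMEFs. It fell by 0.65 on the log2 scale (SE 0.10, adjusted p = 0.000211), to 0.636 of the control level. Its paralog *Cox6b2*, an isoform known from testis, was at 1.49, 1.56 and 0.839 CPM and at 3.06, 2.80 and 3.79 CPM, and rose by 1.24 (SE 0.28, adjusted p = 0.00292). The groups did not overlap for either paralog. *Cox6b2* made up 1.46% ± 0.336 of the reads per kb of the pair in control iMEFs and 5.56% ± 1.06 in senescent iMEFs (SD, n = 3 each), and *Cox6b1* the rest. The testis markers *Prm1*, *Tnp1* and *Ldhc* summed to at most 0.110 CPM in any iMEF library.

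*Cox5b* was at 58.1, 51.3 and 46.5 CPM in control iMEFs and at 39.7, 41.0 and 39.8 CPM in senescent iMEFs, and fell by 0.37 on the log2 scale (SE 0.10, adjusted p = 0.00856). The levels of *Cox4i1* and *Cox5a*, which like *Cox5b* are nuclear subunits around the mitochondrially encoded core, overlapped between the groups. *Cox4i1* was at 278, 264 and 256 CPM and at 249, 273 and 266 CPM, with a log2 fold change of -0.02 (95% confidence interval -0.19 to 0.15). *Cox5a* was at 83.4, 78.2 and 81.6 CPM and at 82.1, 87.1 and 79.0 CPM, with a log2 fold change of 0.03 (-0.14 to 0.20). The difference in response between *Cox5b* and these subunits was not tested.

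Among the assembly factors of complex IV, *Cox14*, which acts early in the synthesis of COX1, was at 38.6, 35.1 and 32.2 CPM in control iMEFs and at 23.8, 26.8 and 22.7 CPM in senescent iMEFs. It fell by 0.53 on the log2 scale (SE 0.10, adjusted p = 0.00163). *Cox17*, the copper chaperone, was at 1.55, 1.11 and 1.84 CPM and at 1.99, 2.50 and 6.65 CPM. It rose by 1.25 (SE 0.42, adjusted p = 0.0256), with senescent replicate 3 far above the other libraries. Without that library, which also held the high mitochondrial share, the log2 fold change was 0.56 and the adjusted p was 0.137. The adjusted p was 0.0596 without control replicate 1 and 0.0961 without control replicate 2, and 0.0590 with limma-voom. *Gm21987* on the same strand shares 257 exon bases of *Cox17*, and 17 copies cover 9.7% of the *Cox17* main transcript. The shared bases are 4.45% of 5773 annotated exon bases, which fill the whole span of *Cox17*. Their share of a shorter transcript would be larger and was not measured. *Cox10*, *Cox11*, *Cox15*, *Cox16*, *Cox18*, *Cox19* and *Cox7a2l* did not pass.

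The tissue isoforms of complex IV were at or near the lower limit in iMEFs. *Cox4i2*, *Cox6a2* and *Cox7a1* reached at most 0.101, 0.472 and 0.516 CPM in any iMEF library, and *Cox7b2*, *Cox8b* and *Cox8c* had no read there. *Cox6a1*, *Cox7a2*, *Cox7b* and *Cox8a*, their widely expressed partners, had log2 fold changes of 0.12, -0.02, -0.20 and 0.02, and none passed. *Cox20*, with 32 reads over the iMEF libraries, was not tested, and *Hnrnpu* on the opposite strand covers 91.1% of its exon bases. *Cox6c2* and *Cox20b* are processed pseudogenes in GENCODE and were not tested either.

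Complex V, ATP synthase, gave 6 falls (35.3%) and 1 rise (5.88%) among 17 tested genes in iMEFs, beside 21.2% and 18.6% of all genes tested. In the F1 head, the falls were in the delta and epsilon subunits of the central stalk. *Atp5e*, the epsilon subunit, is encoded on chromosome 2 from 174461072 to 174464105. It was at 75.2, 63.6 and 60.6 CPM in control iMEFs and at 28.1, 39.0 and 30.6 CPM in senescent iMEFs. *Atp5d*, the delta subunit, was at 216, 217 and 183 CPM and at 162, 139 and 139 CPM. Neither pair of groups overlapped. *Atp5e* fell by 1.03 on the log2 scale (SE 0.13, adjusted p = 4.52e-05), to 0.491 of the control level, and *Atp5d* fell by 0.48 (SE 0.09, adjusted p = 0.00153).

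The alpha, beta and gamma subunits of the head did not pass. *Atp5b* was at 1306, 1377 and 1352 CPM in control iMEFs and at 1494, 1571 and 1436 CPM in senescent iMEFs. *Atp5a1*, the alpha subunit, was at 721, 761 and 726 CPM and at 646, 677 and 600 CPM. *Atp5c1*, the gamma subunit of the rotor, was at 235, 265 and 261 CPM and at 254, 284 and 248 CPM. The groups did not overlap for *Atp5b*, which lay higher in senescent cells, nor for *Atp5a1*, which lay lower, but neither passed, with log2 fold changes of 0.16 (95% confidence interval -0.04 to 0.35, adjusted p = 0.187) and -0.20 (-0.39 to -0.01, adjusted p = 0.0855). *Atp5c1* had a log2 fold change of 0.05 (-0.14 to 0.23).

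In the membrane part, *Atp5k*, the small subunit e on chromosome 5 from 108433244 to 108434448, was at 38.5, 37.2 and 29.1 CPM in control iMEFs and at 16.3, 12.1 and 10.8 CPM in senescent iMEFs. It fell by 1.41 on the log2 scale (SE 0.15, adjusted p = 1.9e-05), to 0.377 of the control level, which was the largest fall among the 58 genes. A pseudogene copy covers 56.6% of its transcript. *Atp5l*, subunit g, was at 77.2, 77.7 and 76.8 CPM and at 77.6, 84.9 and 77.8 CPM, and *Atp5j2*, subunit f, at 142, 137 and 155 CPM and at 130, 166 and 131 CPM. Neither of these partners passed, with log2 fold changes of 0.05 and -0.02. *Atp5mpl*, a small protein associated with the membrane part, had 0.06.

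The c ring is built from identical c subunits that come from 3 genes, which differ in the leader peptide. *Atp5g3* was at 241, 241 and 223 CPM in control iMEFs and at 184, 170 and 153 CPM in senescent iMEFs. *Atp5g2* was at 151, 153 and 149 CPM and at 128, 109 and 113 CPM. *Atp5g1* was at 91.7, 98.7 and 93.6 CPM and at 87.9, 97.8 and 82.8 CPM. The groups were apart for *Atp5g3* and *Atp5g2*, which fell by 0.48 (SE 0.09, adjusted p = 0.000867) and by 0.37 (SE 0.08, adjusted p = 0.00321) on the log2 scale, and overlapped for *Atp5g1*, at -0.08 (95% confidence interval -0.27 to 0.10). Per kb of transcript the 3 genes together amounted to 551 ± 17.5 CPM (control, SD, n = 3) and 412 ± 32.9 CPM (senescent, SD, n = 3). These sums depend on the main transcripts taken, of 4715 bases for *Atp5g1*, 731 for *Atp5g2* and 723 for *Atp5g3*, and so weigh *Atp5g1* little. Pseudogene copies cover 88.2% of the *Atp5g2* transcript.

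In the peripheral stalk, *Atp5o*, the subunit that joins stalk and head, was at 106, 118 and 94.95 CPM in control iMEFs and at 75.5, 76.7 and 65.6 CPM in senescent iMEFs, and fell by 0.55 on the log2 scale (SE 0.10, adjusted p = 0.000862). *Atp5h*, subunit d, was at 95.7, 95.8 and 102 CPM and at 111, 132 and 112 CPM, and rose by 0.27 (SE 0.09, adjusted p = 0.0227). These 2 subunits of the same stalk thus passed in opposite directions, without overlap of the groups in either gene. *Atp5f1* and *Atp5j*, the other stalk subunits, did not pass. Exon bases of *Atp5o* are shared with other annotated genes for 47.9% of their length. Among these genes is the second identifier of *Atp5o*, on the same strand, all of whose exon bases are shared. Copies of at least 95% identity cover 92.0% of the *Atp5o* transcript, and 4 pseudogene copies of *Atp5h* cover 71.3% of the *Atp5h* transcript. The call for *Atp5h* was lost without control replicate 1, control replicate 2 or senescent replicate 2, with adjusted p up to 0.107.

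**Figure D3:**
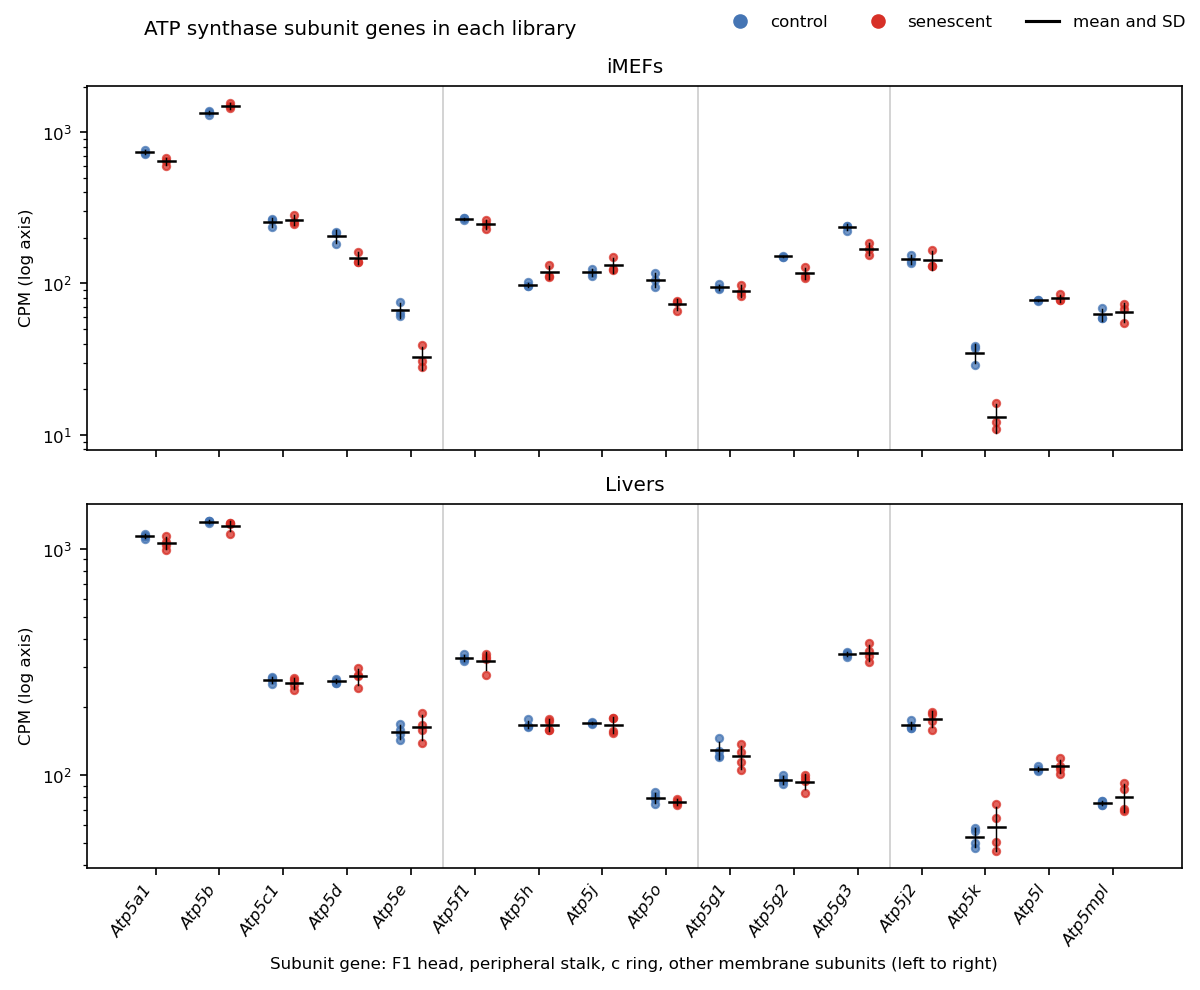
Level of 16 ATP synthase subunit genes in each library of iMEFs (top) and livers (bottom), in CPM on a log axis, with black bars for the mean and SD (n = 3 per iMEF group and 4 per liver group). In iMEFs *Atp5k* and *Atp5e* drop from 29.1 to 38.5 and 60.6 to 75.2 CPM to 10.8 to 16.3 and 28.1 to 39.0 CPM, while in livers the 2 groups overlap for both.

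Summed over subunits, the levels of each of the 4 complexes overlapped between the iMEF groups. Complex III held 899 to 951 CPM in control iMEFs and 810 to 916 CPM in senescent iMEFs. Complex V held 3942 to 4084 CPM in control iMEFs and 3607 to 4043 CPM in senescent iMEFs, and all 68 genes together 7129 to 7376 CPM and 6625 to 7361 CPM. Within each senescent library the median log2 distance of the tested genes from the control mean was -0.12, 0.04 and -0.19 in replicates 1, 2 and 3, against -0.04 to 0.04 in control libraries. Senescent replicate 2 thus lay with the controls and the other two below them.

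**Figure D4:**
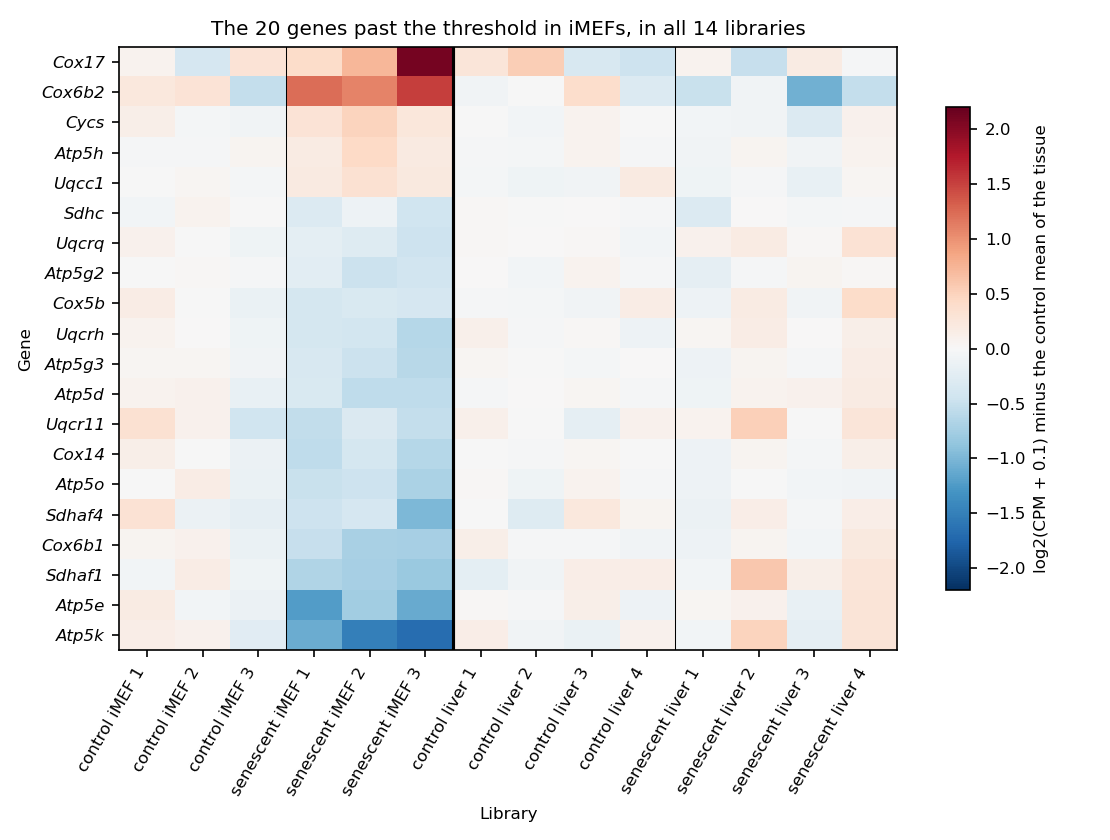
Heat map of the 20 genes past the threshold in iMEFs (rows) in all 14 libraries (columns), as log2(CPM + 0.1) minus the control mean of the same tissue, red for higher and blue for lower. In the columns of senescent iMEFs the 5 risen genes are red and the 15 fallen genes blue, and the columns of senescent livers are pale, apart from single values such as *Cox6b2* in senescent liver 3.

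In senescent livers 0 of the 59 tested genes passed in either direction with edgeR. At an unadjusted p under 0.05 there were 5, and with DESeq2 and limma-voom 0 passed as well, with 5 and 7 at an unadjusted p under 0.05. Over all 14270 genes tested in livers with edgeR, 0.308% rose and 0.035% fell past the adjusted threshold, and 1076 had an unadjusted p under 0.05. The median log2 fold change of the 59 genes was 0.02, beside 0.00 for all genes tested, and 49 of them had a 95% confidence interval that lay within -0.5 and 0.5. The medians over subunits were -0.08 in complex II, 0.06 in complex III, 0.03 in complex IV and -0.02 in complex V. Within senescent livers the median distance from the control mean was -0.09, 0.07, -0.04 and 0.13 in replicates 1 to 4, so that these libraries lay on both sides of the controls, which kept within -0.02 and 0.02.

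The smallest p in livers belonged to *Cox7a1*, an isoform of complex IV known from muscle and brown fat. It was at 2.23, 1.94, 3.59 and 1.44 CPM in control livers and at 0.925, 1.45, 1.02 and 1.01 CPM in senescent livers. The log2 fold change was -0.99 (95% confidence interval -1.74 to -0.23, adjusted p = 0.471), and the highest senescent library lay just above the lowest control library. The striated muscle markers summed to at most 0.132 CPM in any liver library, and 3 of the 5 had no read. Adipocyte markers summed to 3.16 to 5.99 CPM in control livers and to 3.93 to 7.51 CPM in senescent livers. Nearly all of that was *Fabp4*, with means of 4.10 CPM in control and 5.70 CPM in senescent livers. *Adipoq* and *Plin1* reached at most 0.189 and 0.117 CPM in any liver library, and *Ucp1* and *Cidea* were at 0.

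*Cox16*, *Uqcc3* and *Cox15*, all assembly factors, came next. *Cox16* was at 8.14, 9.27, 8.70 and 8.82 CPM in control livers and at 11.5, 12.2, 10.5 and 10.9 CPM in senescent livers, with a log2 fold change of 0.36 (adjusted p = 0.480). *Uqcc3* was at 17.7, 17.4, 15.6 and 19.1 CPM and at 22.1, 25.0, 19.7 and 20.9 CPM, with 0.33 (adjusted p = 0.484). *Cox15*, which makes heme A, was at 31.9, 36.6, 30.5 and 42.3 CPM and at 28.9, 29.5, 29.6 and 29.5 CPM, with -0.27 (adjusted p = 0.607). In these 3 genes, and in *Uqcrc1*, the groups did not overlap, which made 2 genes higher (3.39%) and 2 lower (3.39%), beside 2.55% and 1.96% of all genes tested in livers. *Gm20498* on the same strand shares 56.8% of the exon bases of *Cox16*.

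In livers the main subunits named here overlapped between the groups, except *Uqcrc1*. *Sdha* was at 583, 553, 546 and 553 CPM in control livers and at 477, 549, 501 and 452 CPM in senescent livers, with a log2 fold change of -0.18 (95% confidence interval -0.36 to 0.01). *Atp5b* was at 1326, 1299, 1334 and 1328 CPM and at 1168, 1300, 1285 and 1307 CPM, with -0.06 (-0.23 to 0.10). *Cox4i1* was at 417, 390, 417 and 392 CPM and at 391, 414, 411 and 405 CPM, with 0.00 (-0.16 to 0.16). The log2 fold changes of *Sdhb*, *Uqcrc2*, *Uqcrfs1*, *Cyc1*, *Cycs*, *Cox5a*, *Cox5b*, *Atp5a1* and *Atp5c1* lay between -0.10 and 0.11.

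Whether the tissues differed was tested on the 58 genes measured in both, as the liver log2 fold change minus that of iMEFs over all 14 libraries. In 13 genes (22.4%) the difference was positive and in 2 (3.45%) negative past an adjusted p of 0.05, beside 9.69% and 7.41% of the 11693 genes tested in both. This test uses the same iMEF libraries as the comparison above, and 13 of the 15 genes had passed in iMEFs. The iMEF and liver comparisons also differ in time after deletion, culture and immortalization. Active Cre and 4HT separate the groups in iMEFs only, since both liver groups received Cre. Whether a difference comes from the tissue or from these features was not tested. The largest positive differences were in *Atp5k*, at 1.55 (SE 0.23, adjusted p = 0.000234), and *Atp5e*, at 1.09 (SE 0.17, adjusted p = 0.00032). In livers *Atp5k* was at 58.4, 50.1, 47.8 and 56.7 CPM in controls and at 50.9, 74.5, 46.4 and 64.7 CPM in senescent livers, and *Atp5e* at 158, 152, 169 and 144 CPM and at 159, 166, 139 and 189 CPM. The liver groups overlapped in both genes, and the intervals of their log2 fold changes in livers, -0.16 to 0.46 and -0.15 to 0.29, held no fall of the size seen in iMEFs.

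*Cox6b1* and *Cox6b2* differed in opposite directions between the tissues. *Cox6b1* was at 189, 171, 170 and 164 CPM in control livers and at 160, 182, 167 and 201 CPM in senescent livers, a liver minus iMEF difference of 0.68 (SE 0.14, adjusted p = 0.00281). *Cox6b2* was at 0.725, 0.762, 1.03 and 0.610 CPM and at 0.520, 0.727, 0.319 and 0.505 CPM, a difference of -1.74 (SE 0.47, adjusted p = 0.0105). Both paralogs had groups that overlapped in livers. Positive differences were also found in *Uqcrh*, *Atp5d*, *Atp5g3*, *Cox14*, *Atp5o*, *Uqcrq*, *Uqcr11*, *Uqcc3*, *Sdhaf1* and *Cox19*, between 0.47 and 0.96, and the second negative one was in *Cycs*, at -0.43 (SE 0.14, adjusted p = 0.0414). *Uqcc3* and *Cox19* were the genes that had not passed in either tissue alone. With each of the 14 libraries left out in turn, *Cycs* passed in 3 of 14 fits, *Sdhaf1* and *Cox19* in 4, *Uqcr11* in 8, *Uqcc3* in 9 and *Uqcrq* and *Atp5o* in 13, and the other 8 genes in all 14.

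**Figure D5:**
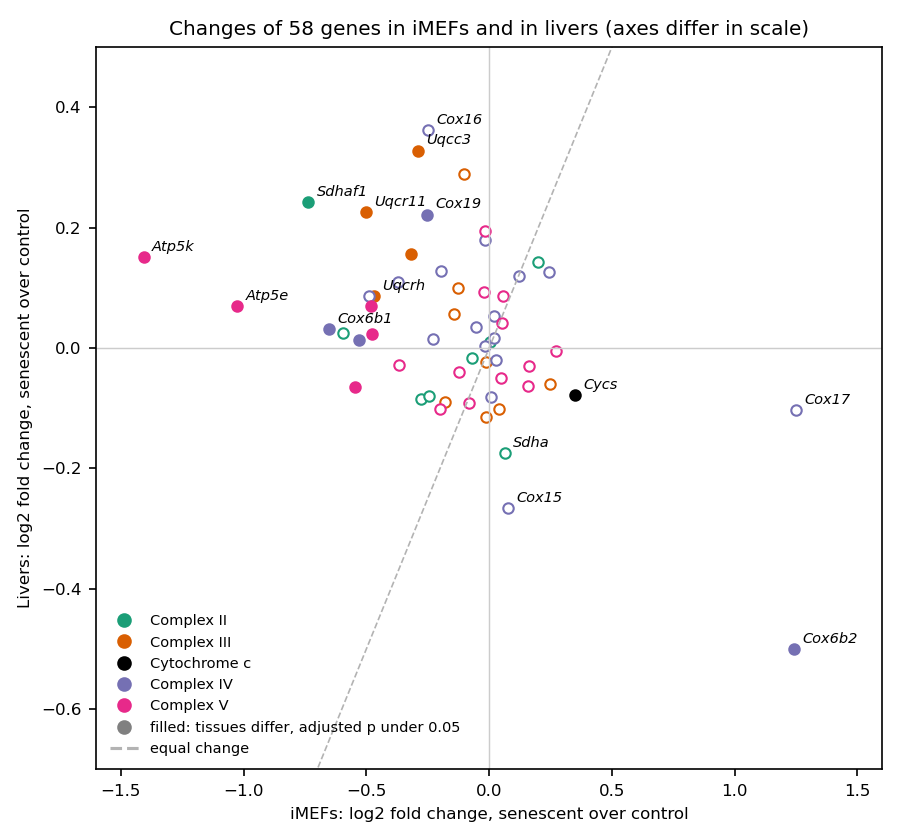
Log2 fold change in iMEFs (horizontal) against that in livers (vertical, on a finer scale) for the 58 genes tested in both tissues, coloured by complex and filled where the tissues differed with an adjusted p under 0.05. The iMEF values spread from -1.41 to 1.25 and the liver values from -0.50 to 0.36, and *Cox6b2*, *Atp5k* and *Cox17* lie farthest from the line of equal change, of which the difference of *Cox17*, at -1.33, did not pass (adjusted p = 0.0754).

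Across the 58 genes the log2 fold changes of the tissues were negatively correlated, with Pearson's r of -0.48 and Spearman's rho of -0.39, and 39 genes had opposite signs. The comparisons share no library, but genes are not independent replicates, and over all 11693 genes r was 0.11 and rho 0.01. Without *Atp5k*, *Atp5e*, *Cox17* and *Cox6b2*, chosen after their values were seen, r was -0.29 over 54 genes. Transcript length ran with both sets of values. In iMEFs rho between fold change and length was 0.25 over 58 genes (0.05 over all genes) and in livers -0.34 over 59 genes (-0.11 over all genes). The 5 tested genes with a main transcript of at most 500 bases, which are *Atp5k*, *Atp5e*, *Uqcr10*, *Uqcr11* and *Uqcc2*, had a median log2 fold change of -0.50 in iMEFs, beside 0.05 for the 262 genes of that length, and the 23 from 500 to 1000 bases had -0.02, beside -0.04 for 882 genes. With a length offset 7 genes rose and 15 fell in iMEFs.

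Levels in control tissues set livers above iMEFs for most subunits. Per kb of transcript, and with tables scaled apart, the ratio of control livers to control iMEFs was 3.00 for *Sdha*, 1.52 for *Cox4i1*, 1.55 for *Atp5a1* and 0.983 for *Atp5b*. *Atp5g3* made up 58.9% ± 0.884 of the reads per kb of the c subunit genes in control iMEFs and 75.0% ± 1.16 in control livers, and *Atp5g2* 37.4% ± 0.782 and 20.7% ± 0.771. The shares depend on the main transcripts taken, of 4715 bases for *Atp5g1* against 731 for *Atp5g2* and 723 for *Atp5g3*. In CPM the control iMEF means were 94.7 for *Atp5g1*, 151 for *Atp5g2* and 235 for *Atp5g3*. *Cox7a1* was 3.73% ± 1.48 of the pair *Cox7a1* and *Cox7a2* in control livers (SD, n = 4). These ratios are descriptions, since the tissues were prepared and scaled separately.

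Of other genes of these complexes, the mitochondrially encoded subunits *mt-Cytb*, *mt-Co1*, *mt-Co2*, *mt-Co3* and *mt-Atp6* had log2 fold changes of 0.53 to 0.84 in iMEFs, and 1 of the 5 tested, *mt-Atp6*, rose (0.82, SE 0.30, adjusted p = 0.0449). *mt-Atp6* was at 12.3, 13.7 and 16.8 CPM in control iMEFs and at 17.6, 15.6 and 42.7 CPM in senescent iMEFs. Its control mean of 14.3 CPM, and those of *mt-Co2* (10.5) and *mt-Co3* (10.7), lay far below those of *mt-Co1* (2472) and *mt-Cytb* (1205). *mt-Co1* was at 2236, 2553 and 2627 CPM in control iMEFs and at 2916, 2147 and 8179 CPM in senescent iMEFs. For *mt-Co1*, senescent replicate 3 alone lay above the controls by a wide margin. Without that library the 5 values ran from -0.17 to 0.23 and none passed. In livers none of the 6 passed.

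Among 28 further assembly factors and accessory proteins, 26 were tested in each tissue. In iMEFs 6 rose (23.1%) and 5 fell (19.2%), near the 18.6% and 21.2% of all genes tested there, and none passed in livers. The rises were in *Lyrm7* (0.86), *Lrpprc* (0.42), *Hccs* (0.39), *Coa3* (0.30), *Tmem70* (0.30) and *Coa5* (0.25), whose products assist the Rieske protein, mitochondrial messenger RNAs, heme attachment to cytochrome c, complex IV, ATP synthase and complex IV again. The falls were in *Higd2a* (-0.79), *Fmc1* (-0.67), *Atpif1* (-0.65), *Higd1a* (-0.29) and *Ndufa4* (-0.19). *Atpif1* encodes the inhibitor of ATP hydrolysis by complex V and *Fmc1* a factor of its assembly. The median over the 26 was 0.01 in iMEFs and 0.03 in livers.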

How the data were processed

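RNA-seq counts were analysed from 6 iMEF and 8 liver libraries. The authors deposited unnormalized gene counts, 1 table for each tissue. The submitters' processing notes name mm10, STAR and featureCounts without versions. Annotation release and strand setting: not given in the sources used here. Normalized tables were not used.

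Each tissue was fitted with edgeR 4.0.16 in R 4.3.3 (filterByExpr, TMM, quasi-likelihood test, prior count 2), with Benjamini-Hochberg adjustment over all genes tested, at a threshold of 0.05. The difference between tissues was an interaction over all 14 libraries. Methods were tested on simulated data. The members, gene lists and tests were chosen with earlier results of these data known. Named were a set of core, catalytic and other main subunits, the 10 largest falls and all rises in iMEFs, the 4 smallest p-values in livers, the 10 smallest p-values of the difference, paralogs, genes under 10 reads and the highest level, and further genes past the threshold were named after their values were seen. The tables hold no gene length, so lengths were those of the main transcript in GENCODE M21 (GRCm38). Copies were matches of at least 95% identity over 100 bases (blastn 2.17.0). Alternatives were RLE factors, DESeq2 1.42.0, limma-voom (limma 3.58.1), no filter, a threshold of 0.01, the replicate number as a block, each library left out, 1 fit over all libraries, a length offset and, chosen after seeing the data, a GC offset. The label calls replicates biological, without naming cultures or litters.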

Additional observations from a re-analysis of the deposited data

Results flagged for a closer look

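In 118 groups of 4 liver libraries, 1 per gene and condition, 5 had a library that stood apart by Dixon's criterion, and chance alone flags about 1 in 20. In control livers, replicate 4 was lowest for *Uqcrq* at 289.1 CPM, with the others at 304.8 to 307.0 CPM, and highest for *Uqcc1* at 40.24 CPM, with the others at 33.07 to 34.29 CPM. Control replicate 3 was highest for *Atp5h* at 176.9 CPM, with the others at 163.2 to 165.0 CPM. Senescent replicate 1 was lowest for *Uqcrc1* at 247.1 CPM, with the others at 279.6 to 282.1 CPM, and for *Atp5b* at 1168 CPM, with the others at 1285 to 1307 CPM. None of these genes passed in livers.

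The log2 fold change of senescent over control differed between iMEFs and livers, by the test of the difference itself, in 15 genes. The iMEF and liver comparisons also differ in time after deletion, culture and immortalization. Active Cre and 4HT separate the groups in iMEFs only, so tissue cannot be told apart from these features. The liver minus iMEF differences in log2 fold change were 1.55 for *Atp5k*, 1.09 for *Atp5e*, 0.96 for *Sdhaf1*, 0.72 for *Uqcr11*, 0.68 for *Cox6b1*, 0.61 for *Uqcc3*, 0.55 for *Uqcrh*, 0.55 for *Atp5d*, 0.54 for *Cox14*, 0.50 for *Atp5g3*, 0.48 for *Atp5o*, 0.47 for *Uqcrq*, 0.47 for *Cox19*, -0.43 for *Cycs* and -1.74 for *Cox6b2*. Under every one of the 21 alternative fits 6 of them passed, namely *Atp5k*, *Atp5e*, *Cox6b1*, *Uqcrh*, *Atp5d* and *Atp5g3*. *Cycs* passed in 6, *Sdhaf1* in 8 and *Cox19* in 9 of the 21.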

How the results depend on the processing

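Of the 20 genes past the threshold in iMEFs, 11 passed in all 14 alternative fits, namely *Atp5k*, *Atp5e*, *Cox6b1*, *Atp5o*, *Atp5g3*, *Atp5d*, *Uqcrh*, *Cox14*, *Cox6b2*, *Atp5g2* and *Cox5b*, and all 20 kept their sign. The 5 rises became 1 at a threshold of 0.01, and 1 to 7 with single libraries left out, the lowest without control replicate 2 (2 without control replicate 1, 3 without senescent replicate 2). The falls stayed between 10 and 18 with single libraries left out. The 15 genes that differed between the tissues became 5 at a threshold of 0.01, 8 with no filter on low counts, and 9 to 16 with single libraries left out, the lowest without control iMEF replicate 2. The median of the complex IV subunits in iMEFs was -0.02 and lay between -0.0705 and 0.0629 with single libraries left out, the highest without senescent replicate 3. The length offset gave 7 rises and 15 falls and the GC offset, chosen after the data were seen, 6 and 15. Replicate numbers did not pair the libraries: same-number correlations of deviations were -0.005, -0.050 and -0.171 in iMEFs and -0.002, -0.083, -0.035 and 0.237 in livers, and only replicate 4 of livers correlated best with its own number. With the number as a block 4 genes rose and 15 fell in iMEFs, 0 passed in livers and 13 differed between the tissues. In livers no alternative brought a gene past the threshold.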
